A study of Mus musculus with 6 samples.

Results

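Eif3j2 and Gm3650 are neighbouring genes on mouse chromosome 18 that match parts of Eif3j1 and Spg11, a neighbouring pair on chromosome 2. These 4 genes, of 55487 listed in the count tables, were chosen by name with their difference between the groups already known, and all 4 were among the 18237 genes that passed the filter on low counts. Eif3j2 and Gm3650 are called the copies here, and Eif3j1 and Spg11 the sources. These names mark the pairs that were compared and not a tested origin. The study sequenced RNA of the cerebellum of male mice on postnatal day 14, with 1 library per animal. The 3 knockout (KO) animals were homozygous for the Galnt17 allele Galnt17tm1.1(KOMP)Vlcg, which the sample names call Wbscr17, and the 3 wild-type (WT) animals were B6C3, the cross C57BL/6J X C3H/He. Per the labels, the allele came from a C57BL/6J colony in which no homozygote was born alive, and live homozygotes were had after breeding to B6C3 hybrids. The sources used here do not say which strain's chromosomes 2 and 18 an animal carried, nor how many generations of breeding came before it, so the allele and the strain background cannot be told apart. Galnt17 itself measured 2.99 ± 0.526 CPM (counts scaled to library size) in KO and 45.3 ± 2.21 CPM in WT (SD, n = 3 each). Where 3 values follow each other, they stand for replicates 1, 2 and 3 of the group.

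Eif3j1 encodes the j subunit of eIF3, the large factor that loads messenger RNA onto the small ribosomal subunit. That subunit is loosely bound, is known for its part in choosing the start codon and helps to free the small subunit after a round of translation. Spg11 encodes spatacsin, which works with spastizin and the adaptor complex AP-5 in recycling lysosomes, and loss of human SPG11 causes a spastic paraplegia. Eif3j2 is annotated as protein coding and Gm3650 as an unprocessed pseudogene, a class meant for duplicates that keep introns. Genes this alike are hard to measure apart. A read that fits both places equally well is left out of STAR's gene counts, and the place given to any other read can rest on a single base.

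The copies repeat the arrangement of the sources. In GRCm38, Gm3650 (ENSMUSG00000097891, chr18:43472816-43475169, plus strand) and Eif3j2 (ENSMUSG00000043424, chr18:43475418-43477796, minus strand) face each other end to end across a gap of 248 bases. Eif3j1 (ENSMUSG00000027236, chr2:122028546-122056598, plus strand) and Spg11 (ENSMUSG00000033396, chr2:122053520-122118386, minus strand) also face each other, and their ends overlap over 3079 bases. The stretches of the sources that match the copies lie 248 bases apart, the same distance as on chromosome 18.

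Eif3j2 is a single exon of 2379 bases, and it aligned to bases 78 to 2446 of the spliced Eif3j1 transcript of 5413 bases. It crosses all 7 splice junctions of that transcript without an intron. The alignment held 2365 identical bases, 4 base differences and 2 stretches extra in the copy, of 6 and 4 bases, an identity of 99.4%. None of the 4 base differences lies in the coding region of Eif3j1, while the 6 extra bases fall just after its start codon begins. A small annotated gene, Gm27325, shares 74 bases of the Eif3j2 exon. The longest stretch without a difference was 1100 bases, against reads of 150 bases.

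Gm3650 has 5 exons, 747 bases in all, which aligned to bases 6565 to 7311 of the Spg11 transcript of 7671 bases. They match exons 36 to 40 of the 40 exons of Spg11, with 746 identical bases and 1 base difference (99.9%), and they end with the stop codon of Spg11. All 4 exon junctions of Gm3650 fall on junctions of Spg11. Its introns measure 280, 175, 833 and 319 bases, and the matching introns of Spg11 280, 175, 834 and 319 bases. The longest stretch of exon sequence without a difference was 618 bases. The whole matching stretch of Spg11, introns included, lies at chr2:122053880-122056234, inside the last exon of Eif3j1. Gm3650 therefore matches exon sequence of Eif3j1 on the opposite strand as well as exons of Spg11. The Spg11 introns within that stretch are exon sequence of Eif3j1 too. The stretch that Eif3j2 matches ends at chr2:122053631, in the same last exon of Eif3j1. Which of the sources Gm3650 came from, and how the copies arose, was not tested.

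**Figure D1:**
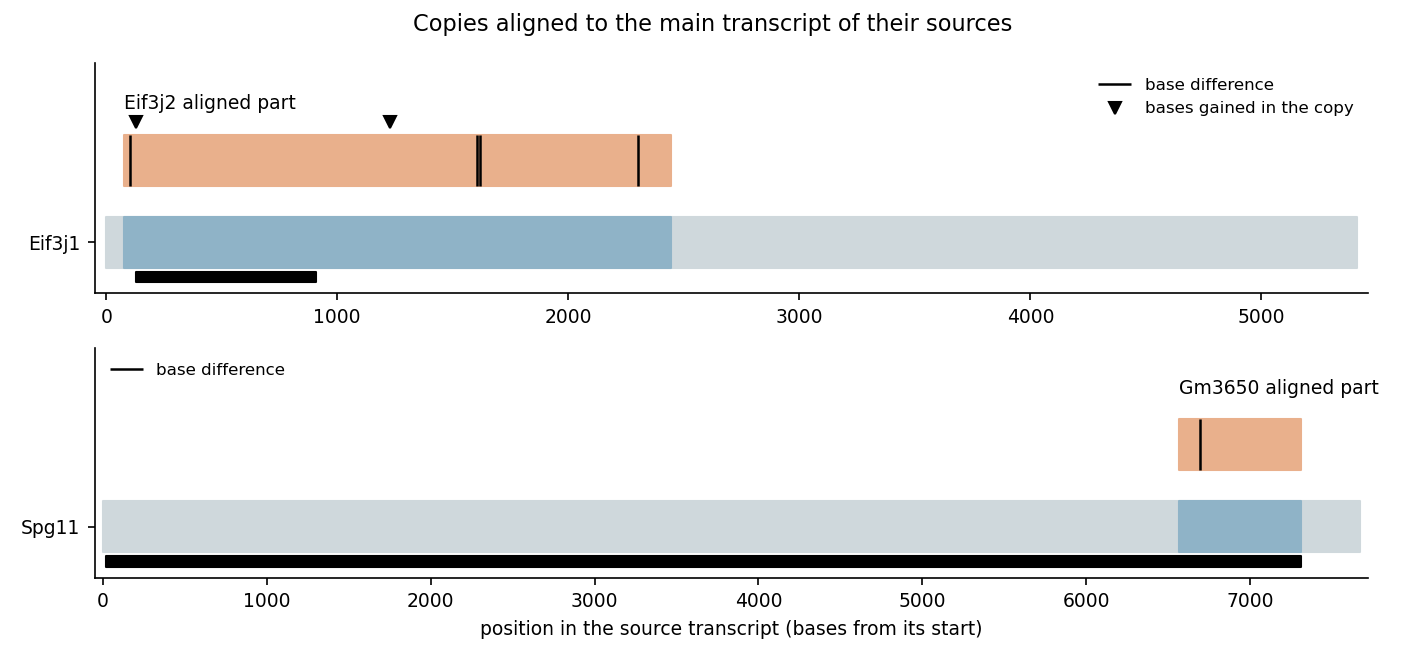
Each copy (orange) above the main transcript of its source (grey, with the matching part in blue and the coding region as a black bar); the axis gives the position in the source transcript in bases. Eif3j2 covers bases 78 to 2446 of Eif3j1 with 4 base differences and 2 places with extra bases, and Gm3650 covers bases 6565 to 7311 of Spg11 with 1 difference.

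Eif3j2 had 93, 75 and 44 counts in KO, against 265, 167 and 205 counts in WT. Scaled to library size, that is 3.12, 3.22 and 2.18 CPM in KO and 11.0, 9.80 and 9.96 CPM in WT. All KO libraries lay far below all WT libraries. The means were 2.84 ± 0.571 CPM in KO and 10.2 ± 0.637 CPM in WT (SD, n = 3 each), a log2 fold change of -1.84 (SE 0.16), or 3.58-fold lower in KO. Of the 18237 genes tested, 83 had a fold change at least as low, Eif3j2 included.

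Gm3650 had 6, 9 and 8 counts in KO, against 63, 52 and 45 counts in WT. Its levels were 0.201, 0.387 and 0.397 CPM in KO and 2.61, 3.05 and 2.19 CPM in WT. A few reads remained in every KO library, well short of the lowest WT library. The means were 0.328 ± 0.110 CPM in KO and 2.62 ± 0.432 CPM in WT (SD, n = 3 each), a log2 fold change of -3.01 (SE 0.31), or 8.08-fold lower in KO. A fold change this low was shared by 21 genes, Gm3650 included.

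Eif3j1, the source of Eif3j2, stood slightly higher in KO. It had 1332, 1035 and 877 counts in KO, against 947, 727 and 814 counts in WT. These are 44.6, 44.5 and 43.6 CPM in KO and 39.2, 42.65 and 39.6 CPM in WT, close together but without overlap. The means were 44.2 ± 0.590 CPM in KO and 40.5 ± 1.89 CPM in WT (SD, n = 3 each), with a log2 fold change of 0.13 (SE 0.06).

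Spg11, called the source of Gm3650 here, was higher by a similar margin. It had 1032, 769 and 661 counts in KO, against 719, 456 and 655 counts in WT. Its levels were 34.6, 33.05 and 32.8 CPM in KO and 29.8, 26.75 and 31.8 CPM in WT. The lowest KO library lay just above the highest WT library, WT replicate 3. The means were 33.5 ± 0.957 CPM in KO and 29.45 ± 2.56 CPM in WT (SD, n = 3 each), with a log2 fold change of 0.18 (SE 0.08).

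In edgeR's quasi-likelihood test both copies, and neither source, passed an adjusted p below 0.05 (Benjamini-Hochberg), where 0.872% of all tested genes passed as lower in KO and 0.784% as higher. The groups did not overlap in any of the 4 genes, which held for 23.7% of all tested genes. These 4 genes were chosen on this contrast, so the counts describe the choice and are no test. The copies stayed lower whichever library was left out, with log2 fold changes of -1.93 to -1.69 for Eif3j2 and -3.17 to -2.72 for Gm3650. The sources likewise stayed higher, at 0.11 to 0.17 for Eif3j1 and 0.13 to 0.24 for Spg11.

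**Figure D2:**
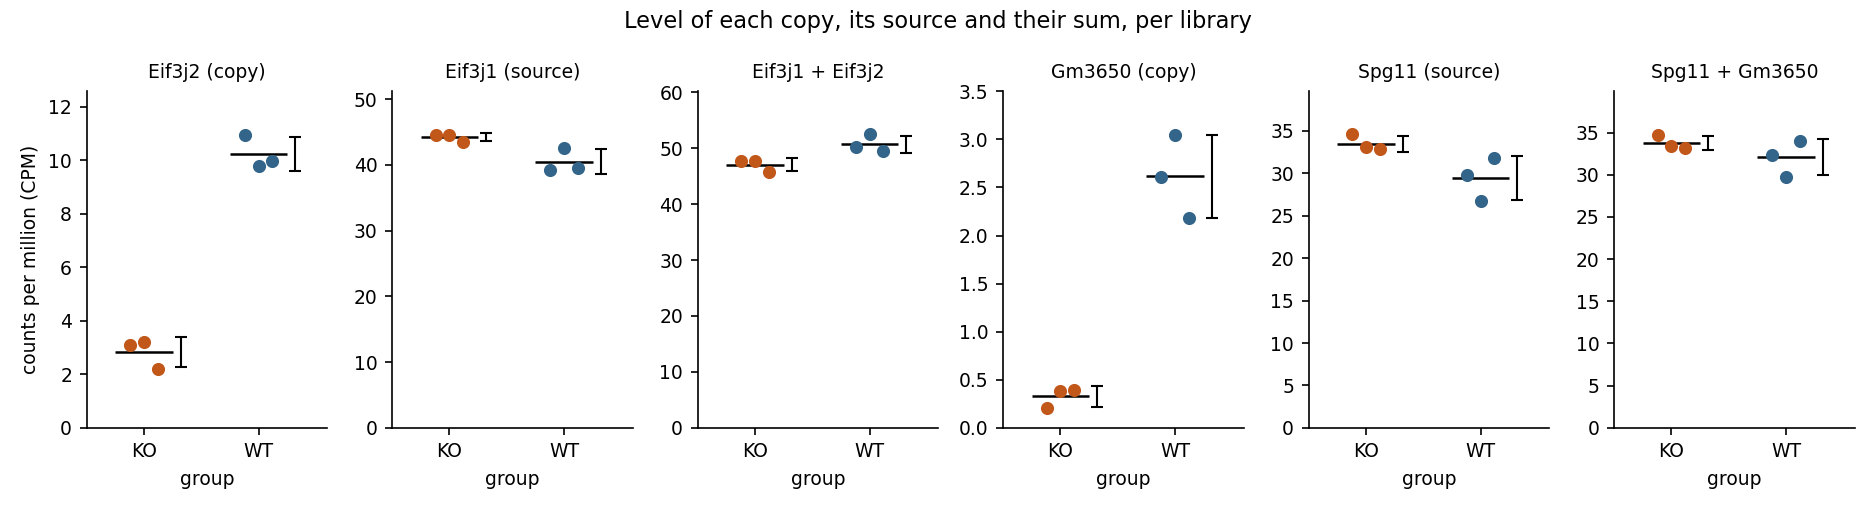
Level in CPM (vertical axes, each from 0) of each copy, its source and their sum, with 1 point per library, a line at the mean and a bar of ± SD beside it (n = 3 per group). The copies separate KO from WT widely (Eif3j2 at 2.84 and 10.2 CPM, Gm3650 at 0.328 and 2.62 CPM), while the sources and sums differ little.

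Summed with its source, each copy made a small difference. Eif3j1 and Eif3j2 together measured 47.75, 47.7 and 45.7 CPM in KO, and 50.2, 52.45 and 49.5 CPM in WT. The sum was lower in every KO library, with a log2 fold change of -0.11 (SE 0.05). On the CPM scale Eif3j2 was lower in KO by a mean difference of -7.40 and Eif3j1 higher by 3.74, so the sum differed by -3.66. In the strand columns the log2 fold change of that sum was -0.07 (SE 0.07) on the first and 0.04 (SE 0.07) on the second. Its direction was thus not the same in every column, but the columns do not sum the same reads. The strand columns add reads in exons of both Eif3j1 and Spg11, which the column without strand leaves out. Those reads were higher in KO (log2 fold change 0.54, SE 0.15). Spg11 and Gm3650 together measured 34.8, 33.4 and 33.2 CPM in KO, and 32.4, 29.8 and 34.0 CPM in WT, and here the groups overlapped (log2 fold change 0.08, SE 0.07). These Spg11 counts, made without strand, leave out the bases that Gm3650 matches.

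The share of the copy in each pair separated the groups more sharply than the sums. Eif3j2 took 6.53%, 6.76% and 4.78% of the Eif3j1 and Eif3j2 counts in KO, against 21.9%, 18.7% and 20.1% in WT. Eif3j1 counts also come from exon sequence that Eif3j2 does not match. Exon that no other gene shares measures 4655 bases in Eif3j1 and 2305 in Eif3j2. The exact 95% binomial intervals, which cover counting error only, reached up to 8.40% in KO and down to 16.2% in WT. Gm3650 took 0.578%, 1.16% and 1.196% of the Spg11 and Gm3650 counts in KO, against 8.06%, 10.2% and 6.43% in WT. That share sets Gm3650 against other parts of Spg11, because the Spg11 counts leave out the bases that Gm3650 matches. Its intervals reached up to 2.34% in KO and down to 4.73% in WT. Because the genes were chosen on this contrast, the distance between the groups in both shares describes the choice and is no test. The strand columns split the reads of every library evenly (49.94 to 49.99% on the first), so they do not show a strand. Like shares in both were to be awaited. For Eif3j2 the means were 5.04 ± 0.796% on the first and 5.2 ± 1.27% on the second in KO. In WT they were 18.7 ± 1.01% and 17.8 ± 3.02% (SD, n = 3 each).

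Spg11 counts do not cover the stretch that Gm3650 matches. All 747 matching bases lie opposite the last exon of Eif3j1, so Gm3650 matches exon sequence of both sources. In a count made without strand a read in exons of both sources is given to neither. The strand columns do hold these reads, and the sum of both strand columns less the column without strand gave their number, the same from Spg11 as from Eif3j1 in every library. This measure was added after the data were seen. There were 242, 188 and 172 such reads in KO, against 128, 119 and 100 in WT. On the CPM scale these were 8.11, 8.08 and 8.54 in KO and 5.30, 6.98 and 4.86 in WT, higher in every KO library (log2 fold change 0.54, SE 0.15).

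Gm3650 and these reads differed between the groups in opposite directions. In KO the mean of Gm3650 differed from WT by -2.29 CPM, and that of the overlap reads by 2.53 CPM. Their sum was 8.31, 8.47 and 8.94 CPM in KO and 7.91, 10.03 and 7.05 CPM in WT, with overlapping groups and a log2 fold change of 0.05 (SE 0.14). That value was not stable: it was 0.20 without WT replicate 2, -0.06 without WT replicate 3, 0.01 without WT replicate 1 or KO replicate 3, and 0.05 to 0.07 without KO replicate 1 or 2. Gm3650 made up 2.42%, 4.57% and 4.44% of that sum in KO, against 32.98%, 30.4% and 31.0% in WT. The exact intervals reached up to 8.57% in KO and down to 23.6% in WT. The overlap takes in 1107 exonic bases of Spg11, more than the 747 that Gm3650 matches, so these reads can also come from sequence that Gm3650 lacks.

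**Figure D3:**
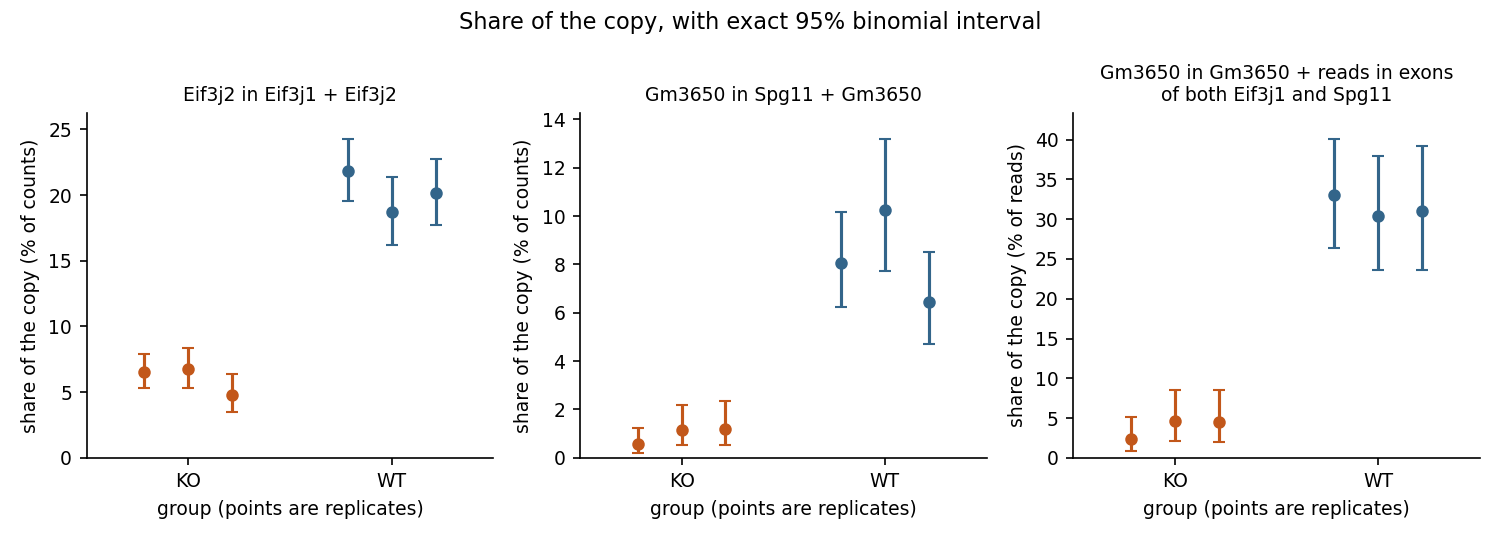
Share of the copy in percent (vertical axes, from 0) with 1 point per library and its exact 95% binomial interval; the left and middle panels set Eif3j2 and Gm3650 against the counts of their sources, and the right panel sets Gm3650 against the reads in exons of both Eif3j1 and Spg11. The KO libraries lie at 4.78 to 6.76%, 0.578 to 1.196% and 2.42 to 4.57%, and the WT libraries at 18.7 to 21.9%, 6.43 to 10.2% and 30.4 to 32.98%.

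Per length, Eif3j2 lay below Spg11 in every KO library, while in WT their ranges overlapped. Levels per kilobase of exon that no other gene shares were, in KO, 9.5 ± 0.127 CPM for Eif3j1, 4.83 ± 0.138 for Spg11, 1.23 ± 0.248 for Eif3j2 and 0.440 ± 0.148 for Gm3650 (SD, n = 3). In KO no ranges of neighbours in that order overlapped. In WT the same levels were 8.70 ± 0.406 CPM for Eif3j1, 4.445 ± 0.276 for Eif3j2, 4.25 ± 0.369 for Spg11 and 3.50 ± 0.578 for Gm3650. There Eif3j2 and Spg11 did not differ beyond their spread, and the ranges of Spg11 and Gm3650 overlapped. Sequence that a gene shares with its copy was not taken off these lengths.

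Of all reads, unmapped ones included, those that fit more than 1 place were a larger share in WT libraries. They made up 3.90, 3.72 and 3.84% of all reads in KO, and 4.22, 4.29 and 4.09% in WT. The means were 3.82 ± 0.0919% in KO and 4.20 ± 0.103% in WT (SD, n = 3 each; exact permutation test, two-sided, p = 0.1, the smallest that 3 against 3 allows). Unmapped reads, which are part of that total, were 13.8 to 17.2% in KO and 6.52 to 10.03% in WT. The share among mapped reads alone was not tested, so the difference cannot be told apart from that in unmapped reads. How many of these reads came from the copies was not tested.

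Facts of the libraries as a whole bear on all values above. Counts in genes totalled 20049223 to 29840046 in KO and 17111611 to 24120704 in WT libraries, and unmapped reads made up 13.8 to 17.2% in KO and 6.52 to 10.03% in WT. All 12 cerebellar markers looked up were detected (2 higher in KO, 10 not passing), with a summed level of 9105 to 9227 CPM in KO and 7871 to 8641 CPM in WT. Of 11 choroid plexus markers 8 passed as lower in KO in edgeR, and all 11 had a lower level and an unadjusted p under 0.05. Over all tested genes 0.872% passed as lower, 0.784% as higher, and 17.6% had such an unadjusted p. The summed level of the choroid plexus markers was 19.1 to 469 CPM in KO and 1164 to 2112 CPM in WT. Of 9 brainstem and midbrain markers 3 passed the filter on low counts, with summed levels of 8.04 to 8.28 CPM in KO and 6.21 to 14.97 CPM in WT, and of 5 forebrain markers 3 did, at 13.7 to 17.0 CPM in KO and 14.1 to 19.9 CPM in WT. Neither list held a call in edgeR (1 and 0 genes at an unadjusted p under 0.05). The part of choroid plexus tissue and of unmapped reads in the values of the 4 genes was not tested, and in bulk tissue fewer cells of a type and less RNA per cell cannot be told apart.

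In edgeR, 0 of the nearest genes around the copies passed as lower in KO, while DESeq2 called Ppp2r2b lower. Of the 12 nearest tested genes, 6 on each side and within 1350 kb, 2 were higher in KO, 0 lower and 10 did not pass in edgeR's test, beside 1.66% of all genes called in either direction. An unadjusted p under 0.05 was had by 6 of the 12, the called genes included, and by 17.6% of all tested genes. Their median log2 fold change was -0.01, beside -0.01 over all tested genes. The closest genes were Dpysl3, which encodes a protein of growing axons and lies 34.5 kb before Gm3650, and AC156546.1, a long noncoding RNA 48.4 kb beyond Eif3j2. Dpysl3 was at 172 ± 8.10 CPM in KO and 199 ± 19.1 CPM in WT (log2 fold change -0.21, SE 0.07, adjusted p = 0.185). AC156546.1 was at 23.9 ± 1.16 CPM in KO and 23.97 ± 3.06 CPM in WT (adjusted p = 0.9825).

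Farther out, Stk32a, a kinase gene, was at 32.5 ± 1.59 CPM in KO and 32.6 ± 4.53 CPM in WT (adjusted p = 0.979). Jakmip2, which encodes a neuronal coiled-coil protein, was at 71.5 ± 3.88 CPM in KO and 77.0 ± 3.09 CPM in WT (adjusted p = 0.3785). Ppp2r2b, a regulatory subunit of protein phosphatase 2A, was at 69.85 ± 4.39 CPM in KO and 84.4 ± 6.18 CPM in WT and did not pass in edgeR (log2 fold change -0.27, adjusted p = 0.0876) but did in DESeq2 (adjusted p = 0.0434). Also not passing were Rbm27, Gpr151, Dcp2 and Ythdc2, with log2 fold changes of -0.70 for Gpr151 to 0.19 for Ythdc2. Without WT replicate 1, 5 of the 12 genes were called, among them Dpysl3 (-0.26, adjusted p = 0.0261), Ppp2r2b (-0.33, adjusted p = 0.00948) and Ythdc2 (0.26, adjusted p = 0.0377).

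The genes that passed were Mcc, a suppressor of Wnt signalling 947 kb from Eif3j2, and A930012L18Rik, an antisense gene inside its span. Mcc had 28.8, 28.1 and 28.1 CPM in KO and 22.45, 17.5 and 18.9 CPM in WT, higher in every KO library. Its log2 fold change was 0.52 (SE 0.09, adjusted p = 0.0232 in edgeR). A930012L18Rik had 2.55, 2.62 and 2.98 CPM in KO and 1.45, 1.35 and 1.02 CPM in WT, also without overlap (log2 fold change 1.083, SE 0.22, adjusted p = 0.0372). The spans of these 2 genes overlap on opposite strands, and whether their exons overlap was not examined. Counts made without strand do not show which strand a read came from, and neither do the evenly split strand columns. On the strand columns the log2 fold change of A930012L18Rik was 0.38 and 0.79 and its call was lost. The call of Mcc was lost on the second strand column (adjusted p = 0.064) and without KO replicate 1, 2 or 3 or WT replicate 2 (0.115, 0.116, 0.101 and 0.0859). That of A930012L18Rik was lost without any KO replicate, WT replicate 2 or WT replicate 3 (0.143, 0.166, 0.164, 0.111 and 0.0667).

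Around the sources, 0 of the 12 nearest tested genes passed in edgeR, 3 had an unadjusted p under 0.05 (17.6% of all tested genes did) and DESeq2 called 1. Their log2 fold changes had a median of 0.03. Ctdspl2, a phosphatase-like gene 14.9 kb before Eif3j1, was at 43.7 ± 1.10 CPM in KO and 42.1 ± 1.37 CPM in WT (adjusted p = 0.667). B2m, the light chain of class I histocompatibility molecules, lies 29.3 kb beyond Spg11 and had 38.4, 47.6 and 45.2 CPM in KO and 33.8, 34.1 and 34.8 CPM in WT. It lay higher in every KO library (log2 fold change 0.35, SE 0.08) and just missed the threshold (adjusted p = 0.0652). B2m was the gene that DESeq2 called (adjusted p = 0.019), it also passed without KO replicate 1 (0.0325) or WT replicate 1 (0.0413), and it overlaps Patl2 on the opposite strand. The remaining genes were Gm14018, Mfap1a, Wdr76, Frmd5, Casc4, Rps12-ps10, Sord, Duoxa1, Duox1 and Shf, with log2 fold changes of -0.78 for Duoxa1 to 0.75 for Gm14018. Without WT replicate 1 Frmd5 passed too (-0.20, adjusted p = 0.0474).

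**Figure D4:**
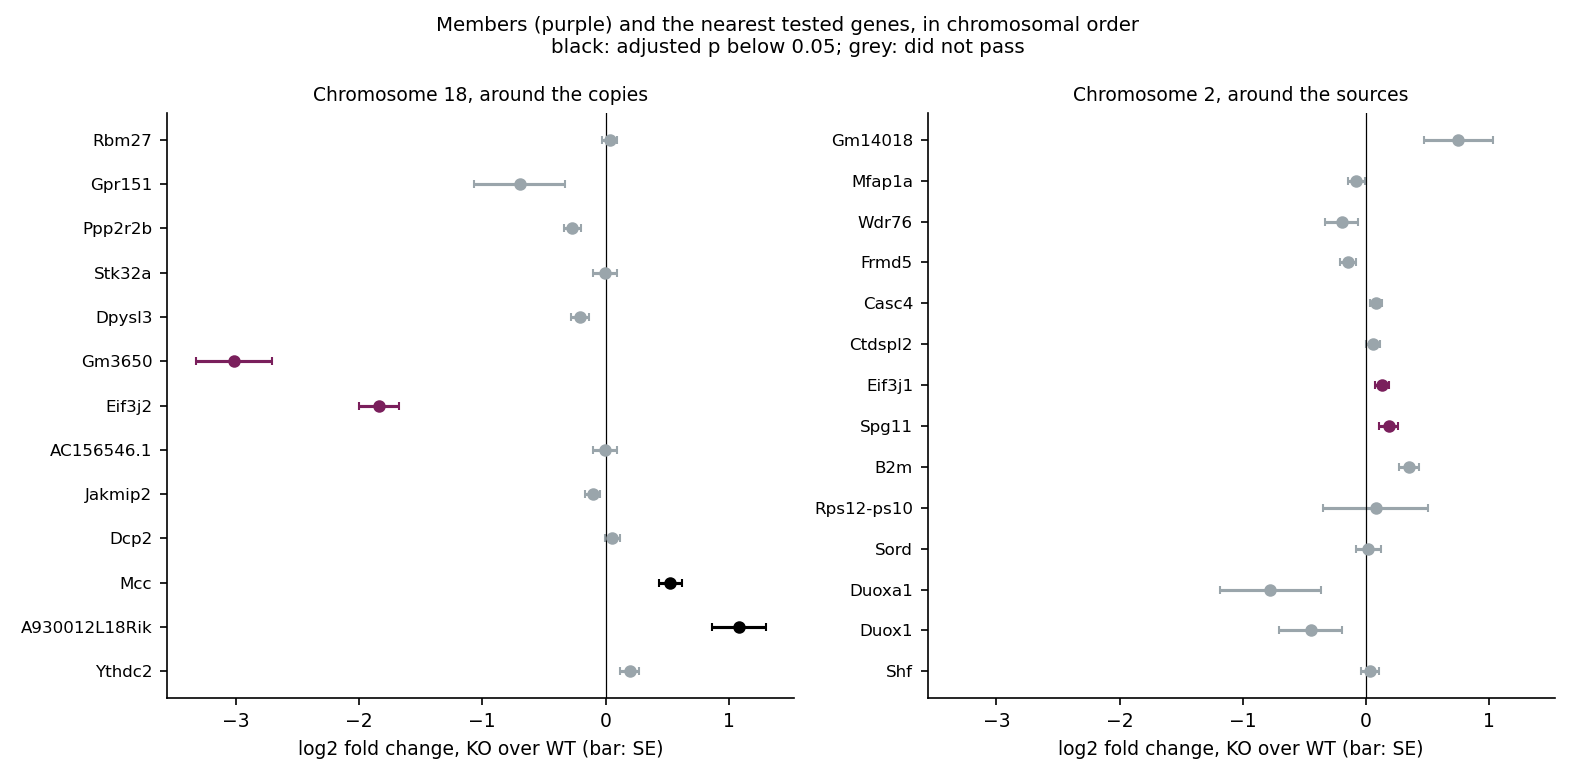
Log2 fold change of KO over WT with its SE (horizontal axes) for the members (purple) and the nearest tested genes on each side, in chromosomal order down the page, with 1 neighbour of the copies not shown. Gm3650 (-3.01) and Eif3j2 (-1.84) stand apart from the neighbours shown on chromosome 18, which lie between -0.70 and 1.083, and the sources lie among theirs on chromosome 2.

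The other 12 subunits of eIF3, which with the j subunit form the complex, held 0 calls in edgeR and DESeq2. An unadjusted p under 0.05 was had by 1 of them, and in this and the lists that follow such counts stand beside 17.6% of all tested genes. Their median log2 fold change was -0.09, beside -0.01 over all tested genes, and they ranged from -0.22 to 0.02. Eif3a, the largest subunit and part of the core, was at 184 ± 2.46 CPM in KO and 211 ± 20.3 CPM in WT (adjusted p = 0.179). Eif3c, another core subunit, was at 141 ± 1.41 CPM in KO and 164 ± 26.9 CPM in WT (adjusted p = 0.286). Eif3f and Eif3l were at 134 ± 7.13 and 79.2 ± 1.13 CPM in KO, and at 153 ± 22.3 and 85.35 ± 4.63 CPM in WT. Without WT replicate 1 the list held 2 calls, Eif3a (-0.25, adjusted p = 0.0273) and Eif3c (-0.33, adjusted p = 0.0116).

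Among 17 factors of start codon choice, termination and ribosome recycling, 0 passed in edgeR and DESeq2 and 2 had an unadjusted p under 0.05, with a median log2 fold change of -0.09. Abce1, the ATPase that splits ribosomes and acts with eIF3j in recycling, was at 129 ± 2.00 CPM in KO and 128 ± 10.6 CPM in WT (adjusted p = 0.953). Eif5b, which joins the ribosomal subunits, was at 73.3 ± 2.43 CPM in KO and 85.8 ± 7.12 CPM in WT (adjusted p = 0.119). The release factor gene Etf1 was at 97.65 ± 2.76 CPM in KO and 108.5 ± 4.76 CPM in WT (adjusted p = 0.1915). Eif1ad and Hbs1l, a ribosome rescue factor, had log2 fold changes of -0.20 and -0.11 and did not pass. Without WT replicate 1 the list held 1 call, Eif5b (-0.25, adjusted p = 0.0451).

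The partners of spatacsin held 0 calls among 5 genes in edgeR and DESeq2, with 1 at an unadjusted p under 0.05 and a median log2 fold change of -0.09. Zfyve26, which encodes spastizin, was at 34.2 ± 0.921 CPM in KO and 34.5 ± 0.831 CPM in WT (adjusted p = 0.931). Ap5s1, the small subunit of AP-5, was at 15.2 ± 0.0680 CPM in KO and 17.99 ± 0.263 CPM in WT (log2 fold change -0.24, SE 0.08, adjusted p = 0.158). Ap5m1, Ap5z1 and Ap5b1, the other AP-5 subunits, had log2 fold changes of -0.09, 0.12 and -0.15 and did not pass.

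Of 19 genes of lysosome reformation and autophagy 0 passed in edgeR and DESeq2, with 2 at an unadjusted p under 0.05 and a median log2 fold change of 0.02. Kif5b, a kinesin that draws tubules from lysosomes, was at 282 ± 7.22 CPM in KO and 255 ± 16.01 CPM in WT (adjusted p = 0.256). Map1lc3b, which marks autophagosomes, was at 219 ± 4.46 CPM in KO and 239 ± 9.17 CPM in WT (adjusted p = 0.258). The autophagy receptor gene Sqstm1 had a log2 fold change of -0.17 and the lysosomal GTPase gene Rab7 of -0.11. Without WT replicate 1 the list held 3 calls, Kif5b (0.19, adjusted p = 0.0479), Rab7 (-0.16, adjusted p = 0.0474) and Sqstm1 (-0.28, adjusted p = 0.00882).

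Of 26 other genes of hereditary spastic paraplegia 0 passed in edgeR and DESeq2, with 5 at an unadjusted p under 0.05, a share near the 17.6% of all tested genes, and a median log2 fold change of 0.01. Ap4e1, a subunit of the adaptor complex AP-4, was at 32.6 ± 1.504 CPM in KO and 26.3 ± 2.37 CPM in WT (log2 fold change 0.31, SE 0.08, adjusted p = 0.0971). L1cam, a neuronal adhesion molecule, was at 168 ± 7.23 CPM in KO and 195 ± 15.3 CPM in WT (adjusted p = 0.139). Washc5 and Reep1, genes of endosome sorting and of endoplasmic reticulum shape, had log2 fold changes of -0.14 and -0.15. Without WT replicate 1 the list held 3 calls, Ap4e1 (0.38, adjusted p = 0.0136), L1cam (-0.28, adjusted p = 0.0117) and Reep1 (-0.19, adjusted p = 0.0321).

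Of the genes named from these lists, Eif5b, Eif1ad, Hbs1l, Ap5m1, Kif5b, Map1lc3b, Sqstm1, Rab7 and L1cam overlap a gene on the opposite strand. Eif3a, Eif3c, Ap4e1 and Reep1 overlap a gene on the same strand. Among the neighbours, Ppp2r2b, Ctdspl2, Frmd5, Casc4 and Duoxa1 also overlap a gene on the opposite strand, and Rbm27 on the same strand. Reads in exons of both genes of such a pair were counted for neither, and whether the exons overlap was not examined.

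**Figure D5:**
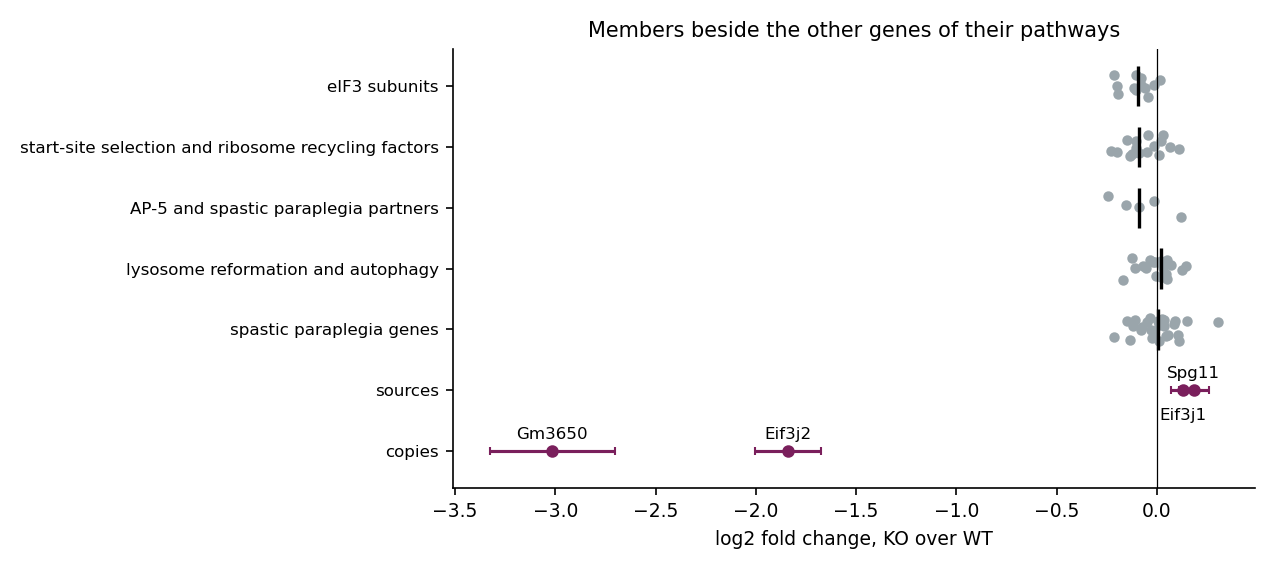
Log2 fold change of KO over WT (horizontal axis) for the genes of the 5 pathway lists (grey points, with the median of each list as a black line) and for the members (purple, with SE). The listed genes lie between -0.24 and 0.31, the sources among them at 0.13 and 0.18, and the copies at -1.84 and -3.01.

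Genes whose levels most resembled those of the copies over the 6 libraries were sought among all tested genes, by the root-mean-square difference in log2 CPM after centring each gene on its mean. For Eif3j2 these were Exoc3l2, a relative of an exocyst subunit (a difference of 0.12), Trhr, the receptor of thyrotropin-releasing hormone (0.20), Rps26-ps1, a ribosomal protein pseudogene (0.20), and the myosin kinase gene Mylk3 (0.21), where the median of all tested genes was 0.94. They lie on chromosomes 7, 15, 8 and 8. Rps26-ps1, the most abundant of them in WT, had 2.52 ± 0.863 CPM in KO and 9.70 ± 0.920 CPM in WT. Exoc3l2, the nearest, lay near the floor, at 0.104 ± 0.0473 CPM in KO and 0.530 ± 0.0574 CPM in WT. Gm3650 ranked 141 in likeness to Eif3j2 (0.59).

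For Gm3650 the nearest were Gm16251, Gm7335, the guanylate-binding protein gene Gbp2b and the crystallin gene Cryba2, with differences of 0.30, 0.33, 0.36 and 0.36 and a median of 1.39 over all tested genes. They lie on chromosomes 7, 17, 3 and 1. Gm7335, a processed pseudogene, had 0.760 ± 0.176 CPM in KO and 4.84 ± 0.747 CPM in WT. Eif3j2 ranked 34 in likeness to Gm3650. Cryba2 had 0 counts in every KO library. For genes near the floor the likeness rests on few reads and on the prior count of 2, which narrows differences between small values. The log2 fold changes of the main fit were -5.29 for Gbp2b and -7.12 for Cryba2, against -3.01 for Gm3650. These genes were picked from all genes for this pattern, so their levels are a description.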

How the data were processed

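Each library's deposited table lists whole-number counts per gene, with Ensembl release 102 per the file names. The submitters' processing notes name STAR 2.7.5a and the builds mm10 and GRCm38. TruSeq libraries were sequenced as pairs of 150 bases, per the labels' protocols. The sources used here do not give the counting options. The notes also name edgeR 3.12, whose results were not used. The column counted without strand was the main one, since the strand columns split evenly (49.94 to 49.99% on the first). The 4 summary lines stayed out of library sizes.

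Symbols and positions came from GENCODE release 21 (GRCm38), which matched 55227 of 55487 identifiers (99.5%). The main test was the quasi-likelihood F test of edgeR 4.0.16 (R 4.3.3), after TMM scaling and a filter at a minimum count of 10 and a minimum total of 15. It was two-sided, with Benjamini-Hochberg adjustment over 18237 genes and a threshold of 0.05, and SEs were derived from the F statistic. CPM use TMM-scaled library sizes, and the likeness search used log2 CPM with a prior count of 2. Sums were fitted by replacing the 4 member rows with 2 sums. Copies were aligned to source transcripts of GENCODE with Biopython 1.88, and intervals came from scipy 1.17.1. The fit was tested on simulated data. DESeq2 1.42.0, other scaling, no filter, the strand columns and leaving out each library were alternatives.

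The members, lists and tests were chosen with earlier results of these data known. Named genes were the members, the 6 nearest tested genes on each side of each pair, up to 4 genes with the smallest p of each of 5 lists and the 4 genes nearest to each copy in likeness. The values of 1 neighbour of the copies, counted among the 12, are not reported here. Abce1, Zfyve26 and Ap5b1 were named for their roles or to complete a list.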

Additional observations from a re-analysis of the deposited data

How the results depend on the processing

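The log2 fold changes of the copies kept their direction under every alternative run, within 1 SD of the spread between replicates. On the first and second strand columns, which both count reads of the overlap, the log2 fold change of Eif3j1 was 0.16 and 0.24 (0.13 without strand), and that of Spg11 0.32 and 0.19 (0.18 without strand). The sum of Eif3j1 and Eif3j2 gave -0.07 and 0.04, and that of Spg11 and Gm3650 gave 0.22 and 0.10. The reads of the overlap with Gm3650 gave -0.06 to 0.20 with a library left out. The share of Eif3j2 in KO minus that in WT was -14.2 percentage points, and -12.6 on the second strand column. Over all genes, 143 were higher and 159 lower in KO, with 290 and 272 in DESeq2 and 803 and 820 without a filter on low counts. Leaving out 1 library at a time gave 28 to 959 higher and 53 to 962 lower genes, the most without WT replicate 1. The calls among the neighbours of the copies numbered 4 without a filter, 1 and 0 on the first and second strand columns and 0 to 5 with a library left out. Those among the neighbours of the sources numbered 1 in DESeq2, 1 without a filter and 0 to 2 with a library left out. Without a filter, the eIF3 list held 1 call, the start codon and recycling list 1 and the spastic paraplegia list 2. With a library left out these lists held 0 to 2, 0 to 1 and 0 to 3 calls, and the lysosome list 0 to 3. The cause of these shifts was not tested. Counts of 6 to 9 reads limit the level of Gm3650 in KO. No paired analysis was possible because the replicate numbers only follow accession order, and the labels tie no KO animal to a WT animal by litter, batch or day.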
